A study of Mus musculus with 21 samples.

Results

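The genes described here are Nfe2l2, which encodes the transcription factor Nrf2, and 9 genes of antioxidant defence: Hmox1, Nqo1, Gclc, Gclm, Txnrd1, Srxn1, Slc7a11, Sod2 and Prdx5. They were looked up by symbol in a table of estimated counts per RefSeq transcript, in which the transcript with the highest mean count stood for its gene. All 10 were among the 25067 genes of the table, and all 10 passed the expression filter that left 12529 genes for testing. The cells were bone marrow-derived macrophages, which form in culture when marrow precursors are given a growth factor, here through 7 days in L929-conditioned medium. The marrow came from male C57Bl6/J mice, either Nur77-KO or wild type (WT), aged 6 to 12 weeks. Nur77 is a nuclear receptor encoded by Nr4a1. Cultures were exposed for 0, 4 or 18 h to 100 ng/ml of lipopolysaccharide (LPS), the endotoxin of Gram-negative bacteria and the ligand of the receptor Tlr4. Poly(A) RNA was sequenced from 3 libraries labelled KO and 4 WT libraries at each time, 21 in all. The genotype tag of the KO libraries reads cre. The sources used here do not give how the knockout was made, or whether libraries with different numbers came from different mice. The p-values therefore reflect only how far these libraries varied, and that variation may be technical.

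Nrf2 is held at a low protein level by Keap1, an adaptor that hands it to the Cul3 ubiquitin ligase for breakdown. Oxidants and electrophiles modify Keap1, and Nrf2 then enters the nucleus, pairs with small Maf proteins and binds antioxidant response elements (AREs), from which Bach1 can displace it. Its best known targets make glutathione, reduce thioredoxin, break down haem and reduce quinones. In macrophages Nrf2 is known to restrain inflammatory gene expression. Because Nrf2 is controlled mainly as a protein, the level of its mRNA is not a measure of its activity.

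The depth behind these values was 12301504 to 29650081 gene counts in a library. The mRNA of the targeted gene, Nr4a1, did not keep 1 direction between the genotypes. At 0 h it stood at 12.2 to 12.4 CPM in the 3 libraries labelled KO and at 13.4 to 16.2 CPM in the 4 WT libraries, lower in every library labelled KO but not called (-0.25, adjusted p = 0.75). At 4 h it was lower in the libraries labelled KO, at 0.871 ± 0.340 CPM (SD, n = 3) against 3.11 ± 2.78 CPM in WT (SD, n = 4; log2 -1.77, adjusted p = 0.040). At 18 h it was higher in the libraries labelled KO, at 2.85 ± 0.698 CPM (SD, n = 3) against 1.10 ± 0.159 CPM in WT (SD, n = 4; log2 1.35, adjusted p = 0.023). These libraries are therefore called labelled-KO. The labels do not say which part of the gene was removed. CPM express a count relative to its library total after adjustment by trimmed-mean (TMM) factors, which ranged from 1.40 to 1.47 at 0 h and from 0.699 to 0.762 at 4 h. At 18 h labelled-KO libraries had factors of 0.853 to 0.888, against 0.988 to 1.03 for WT libraries. The summed level of 8 macrophage markers was 13112 to 24787 CPM in every library, and the 5 erythroid markers were at or near 0. WT number 1 stood apart from the other WT libraries at 0 and 4 h. The chi-square per degree of freedom between its counts and theirs was 27.2 to 31.7 at 0 h and 40.85 to 64.7 at 4 h, against 7.79 to 13.2 and 6.61 to 12.4 among the others. Leaving it out of 0 or 4 h left 9 of the 10 genes called in WT cells at 4 h against 0 h, and leaving it out of 0 h left 9 at 18 h against 0 h, the same counts as with it. Without it at 4 h, 6 were called from 4 to 18 h, against 7 with it. The summed level of 13 stromal markers reached 1003 CPM in labelled-KO number 4 at 18 h.

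Promoter sequence is shown for 4 genes whose upstream 250 bases hold a motif for Nrf2, AP-1 or NF-kB, factors that LPS or oxidants are known to engage. The stretches are from RefSeq on GRCm38.p6, written 5′ to 3′ on the strand of the gene, and end just before its start. An ARE core was searched as TGACNNNGC on both strands, and an AP-1 site as TGANTCA. The NF-kB site was searched as GGGRNWYYCC, where R is A or G, Y is C or T and W is A or T. The first 2 sequences carry an ARE core in capitals, in Gclm on the reverse strand. The third carries a pair of AP-1 sites, and the fourth an NF-kB site.
Nfe2l2: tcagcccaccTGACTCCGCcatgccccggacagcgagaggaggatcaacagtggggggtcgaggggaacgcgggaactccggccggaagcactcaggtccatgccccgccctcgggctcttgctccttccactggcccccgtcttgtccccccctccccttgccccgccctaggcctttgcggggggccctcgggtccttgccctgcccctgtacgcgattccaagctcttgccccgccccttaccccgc
Gclm: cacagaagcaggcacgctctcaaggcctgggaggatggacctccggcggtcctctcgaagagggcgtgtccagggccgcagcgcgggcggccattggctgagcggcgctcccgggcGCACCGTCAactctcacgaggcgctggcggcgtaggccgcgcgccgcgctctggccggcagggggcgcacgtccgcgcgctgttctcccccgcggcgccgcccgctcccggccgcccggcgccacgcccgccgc
Srxn1: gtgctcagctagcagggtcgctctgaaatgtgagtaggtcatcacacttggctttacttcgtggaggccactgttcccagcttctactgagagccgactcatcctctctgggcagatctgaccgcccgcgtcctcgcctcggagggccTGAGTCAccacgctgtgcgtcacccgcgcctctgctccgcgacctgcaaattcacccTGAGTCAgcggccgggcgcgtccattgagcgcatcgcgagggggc
Sod2: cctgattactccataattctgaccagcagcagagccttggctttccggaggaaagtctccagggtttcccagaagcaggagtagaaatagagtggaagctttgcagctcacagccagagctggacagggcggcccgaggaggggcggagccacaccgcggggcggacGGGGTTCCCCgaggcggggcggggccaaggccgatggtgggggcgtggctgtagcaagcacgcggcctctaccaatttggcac
These lie at chr2:75704664-75704913 (reverse strand) for Nfe2l2, chr3:122245307-122245556 for Gclm, chr2:152105274-152105523 for Srxn1 and chr17:13007589-13007838 for Sod2, the last 3 on the forward strand. In Nfe2l2 the ARE core TGACTCCGC began 240 bases before the start. In Gclm the core reads GCACCGTCA on the printed strand and began 134 bases before the start. Srxn1 has TGAGTCA at 102 and again at 45 bases before the start, and Sod2 has GGGGTTCCCC at 83 bases. Among 32851 RefSeq promoters of this length, 10.2% held the ARE core, 6.75% the AP-1 site and 3.9% the NF-kB site. Promoter entries were found for 8 of the 10 genes, not for Hmox1 or Gclc. Besides the 2 genes shown, an ARE core was found for 1 of the start sites of Txnrd1. None of these motifs was found for Nqo1, Slc7a11 or Prdx5. A match is a run of letters and does not show that a factor binds there.

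LPS moved 9 of the 10 genes, and Nqo1 was not called at 4 or 18 h against 0 h. At 4 h the mRNAs of Nfe2l2, Hmox1, Gclc, Gclm and Srxn1 fell in both genotypes. Those of Txnrd1, Slc7a11, Sod2 and Prdx5 rose. By 18 h Hmox1, Gclm and Srxn1 had passed well above their starting level, while Nfe2l2 stayed below it. In labelled-KO cells 4 of the 10 genes were called higher and 5 lower at 4 h, when 75.0% of all genes tested were called (33.5% higher and 41.5% lower). In WT cells the count was also 4 higher and 5 lower, against 78.1% of all genes (35.1% higher and 43.0% lower). A gene is said to be called where its p in the quasi-likelihood test of edgeR, adjusted over all 12529 genes (Benjamini-Hochberg), was under 0.05. At 18 h, set against 0 h, 7 were higher and 1 lower in labelled-KO cells (73.0% of all genes called, 34.5% higher and 38.5% lower). In WT cells 7 were higher and 2 lower (71.1% called, 34.8% higher and 36.3% lower). Between 4 and 18 h, 9 rose and 1 fell in labelled-KO cells (65.4% called, 33.3% higher and 32.1% lower). In WT cells 5 rose and 2 fell (71.7% called, 37.2% higher and 34.5% lower). The median change of the 10 genes from 0 to 18 h was 1.70 on the log2 scale in labelled-KO and 1.20 in WT cells, beside -0.08 and -0.05 over all genes. With most genes called, these counts alone do not set the 10 genes apart. In bulk RNA, fewer cells of a type and less RNA per cell cannot be told apart.

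The size of these changes depends on how libraries are scaled. With library totals in place of TMM factors, the median change of all genes at 4 h was -1.10 in labelled-KO and -1.15 in WT cells, against -0.14 and -0.17 with TMM. At 18 h it was -0.80 and -0.56 with library totals. Fold changes below are therefore relative to the bulk of genes. Under library totals the same 5 genes were called lower at 4 h in both genotypes, together with Nqo1. The rises of Slc7a11, Sod2 and Prdx5 were called, and Txnrd1 in WT cells stood at -0.04 with no call.

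**Figure D1:**
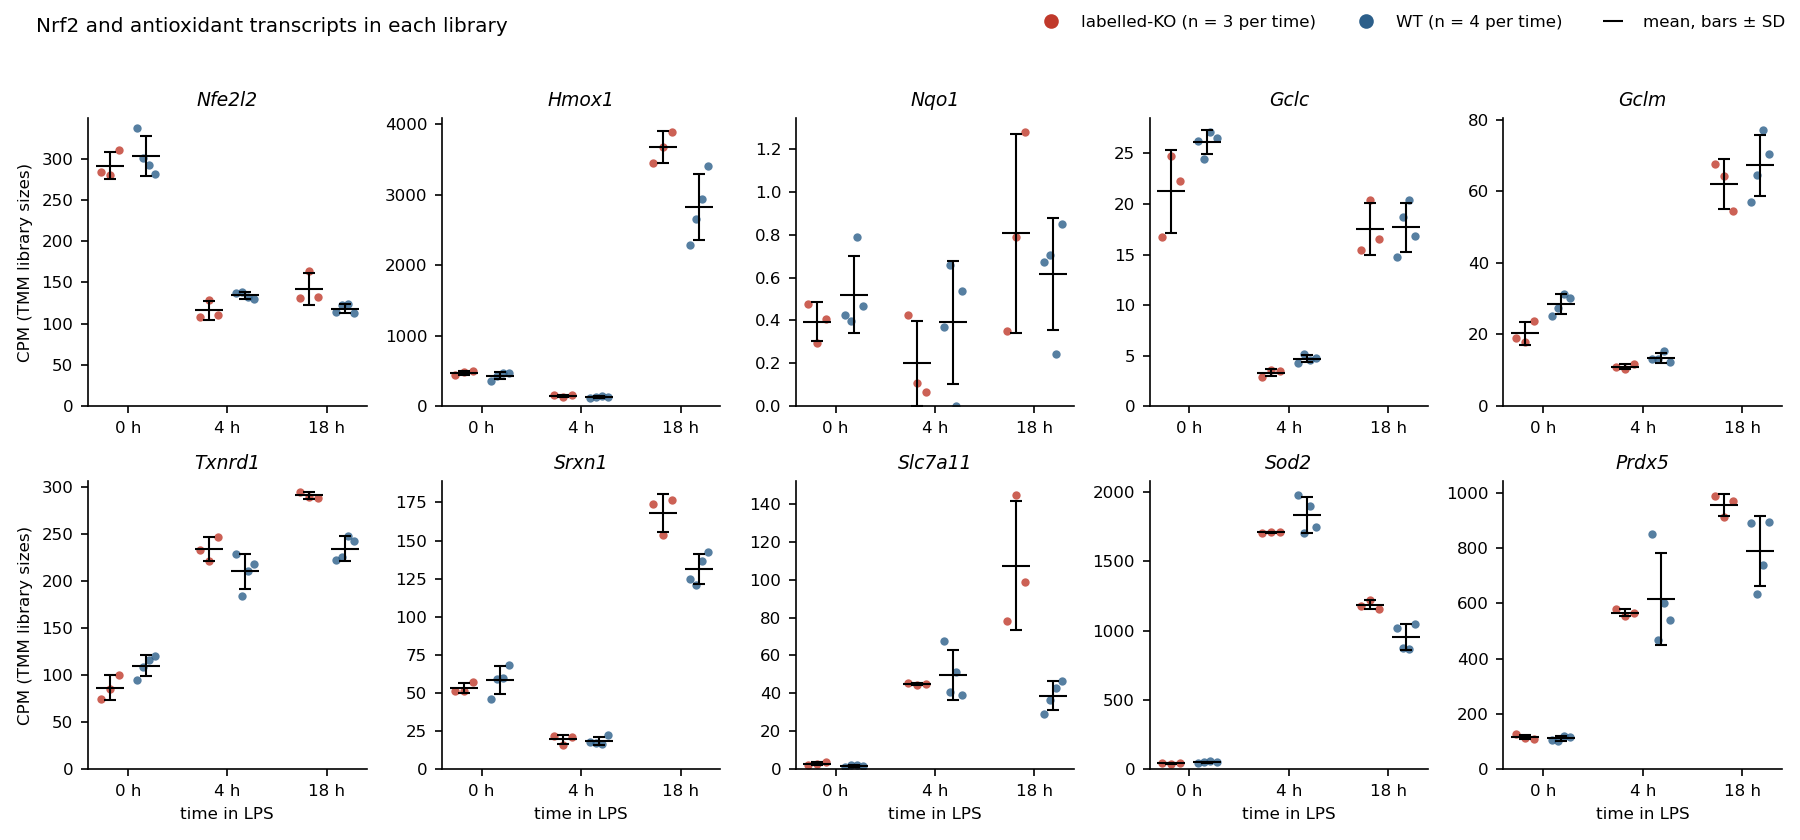
CPM (TMM library sizes, linear axis from 0) of each gene in every library at 0, 4 and 18 h of LPS. Points are libraries, labelled-KO left of WT at each time, and bars are the mean ± SD. The 3 labelled-KO libraries lie above the 4 WT libraries at 18 h for Slc7a11, Hmox1, Nfe2l2, Txnrd1, Srxn1, Sod2 and Prdx5. The share of all genes that do so is not given.

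Nfe2l2 (chromosome 2, 75675513 to 75704663 on mm10) encodes Nrf2 itself. At 0 h it stood at 284, 279.8 and 311 CPM in labelled-KO libraries, against 338, 301, 292 and 281 CPM in WT libraries. At 4 h it stood at 108, 129 and 110.4 CPM in labelled-KO libraries, against 137, 139, 133 and 129.8 CPM in WT libraries. At 18 h the values were 130.5, 164 and 132 CPM in labelled-KO libraries, against 114, 123, 123 and 113 CPM in WT libraries. The genotypes overlapped at 0 h, labelled-KO was lower in every library at 4 h, and it was higher in every library at 18 h. Nfe2l2 fell by 1.33 on the log2 scale at 4 h in labelled-KO cells (SE 0.09, adjusted p = 3.4e-11) and fell by 1.17 in WT cells (SE 0.08, adjusted p = 1.7e-11). From 4 to 18 h it rose by 0.29 in labelled-KO cells (SE 0.09, adjusted p = 0.0093) and fell by 0.19 in WT cells (SE 0.08, adjusted p = 0.046). The call in labelled-KO cells ended without number 3 at 18 h (0.18, adjusted p = 0.088). In WT cells it ended without number 1, 2 or 3 at 4 h or number 1 or 4 at 18 h (-0.19 to -0.16), and the change was 0.28 with library totals, the opposite direction. The difference between these 2 changes was 0.48 (SE 0.12, adjusted p = 0.016), and 0.25 with library totals (adjusted p = 0.15).

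Hmox1 (chromosome 8, 75093618 to 75100593) encodes haem oxygenase-1, which splits haem into biliverdin, iron and carbon monoxide. It stood at 443, 482 and 499 CPM in labelled-KO libraries, against 358, 433, 464 and 474 CPM in WT libraries at 0 h. At 4 h it was down to 157, 129 and 151 CPM in labelled-KO libraries, against 110.1, 121, 140.3 and 135 CPM in WT libraries. At 18 h it reached 3447, 3674 and 3896 CPM in labelled-KO libraries, against 2286, 2660.5, 2937 and 3412 CPM in WT libraries. The times did not overlap in either genotype, and at 18 h the lowest labelled-KO library stood just above the highest WT library. From 0 to 4 h it fell by 1.70 on the log2 scale in labelled-KO cells (SE 0.14, adjusted p = 2.6e-10) and fell by 1.77 in WT cells (SE 0.12, adjusted p = 9.3e-12). The 18 h level was 25.2-fold the 4 h level in labelled-KO cells (log2 4.65, SE 0.15, adjusted p = 3.7e-16) and 22.3-fold in WT cells (log2 4.48, SE 0.13, adjusted p = 3.4e-17). That was the largest change of any of the 10 genes between 4 and 18 h in both genotypes.

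Gclc (chromosome 9, 77754535 to 77794489) and Gclm (chromosome 3, 122245487 to 122267215) encode the catalytic and the modifier subunit of glutamate-cysteine ligase, the rate-limiting enzyme of glutathione synthesis. Their courses differed after 4 h. Gclc averaged 21.3 ± 4.10, 3.32 ± 0.394 and 17.5 ± 2.58 CPM at 0, 4 and 18 h in labelled-KO cells (SD, n = 3). In WT cells it averaged 26.1 ± 1.18, 4.71 ± 0.361 and 17.7 ± 2.44 CPM (SD, n = 4). It was 6.36-fold lower at 4 h than at 0 h in labelled-KO cells (adjusted p = 3e-12) and 5.56-fold lower in WT cells (adjusted p = 1.6e-13), the largest fall among the 10 genes. At 18 h it was still below 0 h in WT cells (log2 -0.56, SE 0.11, adjusted p = 0.00017). In labelled-KO cells the value was -0.28 (SE 0.14, adjusted p = 0.066). It was called there with upper-quartile factors (-0.51, adjusted p = 0.0024) and with library totals (-1.01), and also without number 2 at 0 h (-0.42) or number 3 at 18 h (-0.41).

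Gclm instead ended above its start. At 0 h it stood at 19.1, 17.8 and 23.9 CPM in labelled-KO libraries, against 25.3, 27.4, 31.2 and 30.1 CPM in WT libraries. At 4 h it ranged from 10.2 to 11.7 CPM in labelled-KO and from 12.3 to 15.4 CPM in WT libraries. At 18 h the values were 67.6, 64.1 and 54.3 CPM in labelled-KO libraries, against 57.0, 64.5, 77.1 and 70.2 CPM in WT libraries. Labelled-KO libraries were lower than every WT library at 0 and 4 h and overlapped with them at 18 h. Gclm was at 4 h 1.85-fold below 0 h in labelled-KO cells (adjusted p = 6.1e-06) and 2.12-fold below in WT cells (adjusted p = 1.6e-08). From 0 to 18 h Gclm rose 3.05-fold in labelled-KO cells (adjusted p = 2.1e-10) and 2.36-fold in WT cells (adjusted p = 8.5e-10). The difference between these 2 rises of Gclm was 0.37 on the log2 scale and was not called (SE 0.16, adjusted p = 0.12). The difference between the genotypes in the 18 h change of Gclc was 0.28 (SE 0.18, adjusted p = 0.3).

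Slc7a11 (chromosome 3, 50364936 to 50499087) encodes xCT, the transport subunit that imports cystine for glutathione synthesis in exchange for glutamate. At 0 h it stood at 1.96, 2.61 and 3.56 CPM in labelled-KO libraries, against 1.12, 2.03, 2.15 and 1.78 CPM in WT libraries. Values at 4 h were 45.4, 44.2 and 44.9 CPM in labelled-KO libraries, against 67.7, 40.7, 51.4 and 39.3 CPM in WT libraries. At 18 h it reached 78.4, 145 and 98.6 CPM in labelled-KO libraries, against 29.0, 36.7, 42.6 and 46.4 CPM in WT libraries. The genotypes overlapped at 0 and 4 h and were far apart at 18 h. Slc7a11 was at 4 h already 16.2-fold above 0 h in labelled-KO cells (adjusted p = 2.5e-11) and 28.8-fold above in WT cells (adjusted p = 1.2e-13). Slc7a11 was 38.7-fold higher at 18 h than at 0 h in labelled-KO cells (log2 5.27, SE 0.28, adjusted p = 4.3e-13) and 22.4-fold higher in WT cells (log2 4.48, SE 0.25, adjusted p = 8.2e-13). From 4 to 18 h it rose 2.39-fold in labelled-KO cells (adjusted p = 5e-05). In WT cells that change was -0.36 on the log2 scale with no call (SE 0.19, adjusted p = 0.099), called without WT number 4 at 4 h (-0.47, adjusted p = 0.048) and 0.11 with library totals. The difference between these 2 changes was 1.62 (SE 0.30, adjusted p = 0.0014). The genotype differences in the changes from 0 h were not called. They were -0.83 at 4 h (SE 0.39, adjusted p = 0.47) and 0.79 at 18 h (SE 0.38, adjusted p = 0.17).

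Txnrd1 (chromosome 10, 82833951 to 82897724) encodes the cytosolic thioredoxin reductase, which keeps thioredoxin reduced at the cost of NADPH. At 0 h it stood at 74.1, 84.7 and 100.4 CPM in labelled-KO libraries, against 94.7, 109, 116 and 120.3 CPM in WT libraries. At 4 h it stood at 232, 221 and 247 CPM in labelled-KO libraries, against 228, 184, 210.1 and 218 CPM in WT libraries. At 18 h the values were 295, 289 and 289 CPM in labelled-KO libraries, against 222, 225, 248 and 243 CPM in WT libraries. Labelled-KO libraries thus tended to the lower end at 0 h, with overlap, and lay above all WT libraries at 18 h. Txnrd1 rose 3.37-fold from 0 to 18 h in labelled-KO cells (log2 1.75, SE 0.11, adjusted p = 3.4e-12) and 2.13-fold in WT cells (log2 1.09, SE 0.09, adjusted p = 5.5e-10). The difference between these rises was 0.66 (SE 0.14, adjusted p = 0.0027). The gene overlaps a long noncoding RNA, Gm38560, with a mean of 46.8 counts, and Eid3, with 4.19. Txnrd1 itself had a mean of 3146 counts.

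Srxn1 (chromosome 2, 152105524 to 152111376) encodes sulfiredoxin, which repairs over-oxidised peroxiredoxins. It averaged 53.3 ± 3.31, 19.6 ± 3.12 and 168 ± 12.7 CPM at 0, 4 and 18 h in labelled-KO cells (SD, n = 3). In WT cells it averaged 58.4 ± 9.23, 18.4 ± 2.68 and 131 ± 9.99 CPM (SD, n = 4). The genotypes overlapped at 0 and 4 h, and at 18 h the lowest labelled-KO library (153 CPM) stood above the highest WT library (143 CPM). Like Hmox1, Gclc and Gclm, Srxn1 fell first and then rose. Its 18 h level was 8.55-fold its 4 h level in labelled-KO cells (adjusted p = 6e-14) and 7.08-fold in WT cells (adjusted p = 1.1e-14).

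Prdx5 (chromosome 19, 6906697 to 6910106) encodes a peroxiredoxin that removes peroxides in mitochondria, peroxisomes and the cytosol. It averaged 117 ± 8.17, 566 ± 13.6 and 957 ± 40.5 CPM at 0, 4 and 18 h in labelled-KO cells (SD, n = 3). In WT cells it averaged 111 ± 8.29, 615 ± 166 and 789 ± 126 CPM (SD, n = 4), and WT number 1 stood at 851 CPM at 4 h when the other WT libraries ranged from 468 to 601 CPM. The gene rose at each step in both genotypes. From 0 to 18 h the rise was 8.2-fold in labelled-KO cells (adjusted p = 7.4e-13) and 7.10-fold in WT cells (adjusted p = 1.8e-13). From 4 to 18 h it was 0.76 on the log2 scale in labelled-KO cells (SE 0.16, adjusted p = 0.00024) and 0.36 in WT cells (SE 0.14, adjusted p = 0.022), where the times overlapped. The WT call ended under 2 other settings and without WT number 2 or 4 at 4 h or WT number 1 or 4 at 18 h (0.25 to 0.31). Prdx5 shares 409 bases with Trmt112, which had a mean of 323 counts beside 7988 for Prdx5.

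Sod2 (chromosome 17, 13007839 to 13018119) encodes the manganese superoxide dismutase of mitochondria, a well known NF-kB target. At 0 h it stood at 43.0, 37.6 and 43.1 CPM in labelled-KO libraries, against 45.5, 48.4, 56.0 and 48.7 CPM in WT libraries. The 4 h values were 1707, 1709.7 and 1716 CPM in labelled-KO libraries, against 1983, 1706, 1899.5 and 1750.2 CPM in WT libraries. At 18 h the values were 1179, 1223 and 1157 CPM in labelled-KO libraries, against 1021, 873, 869 and 1045 CPM in WT libraries. Labelled-KO was below all WT libraries at 0 h, overlapped with them at 4 h and lay above all of them at 18 h. Sod2 peaked at 4 h, 41.5-fold above 0 h in labelled-KO cells (log2 5.37, SE 0.12, adjusted p = 1.9e-19) and 37.0-fold in WT cells (log2 5.21, SE 0.10, adjusted p = 1.7e-20). It then fell by 0.53 on the log2 scale in labelled-KO cells (SE 0.10, adjusted p = 5.3e-05) and fell by 0.95 in WT cells (SE 0.08, adjusted p = 1.5e-09). The difference between these falls was 0.42 (SE 0.13, adjusted p = 0.037). The difference from 0 to 18 h was 0.58 (SE 0.13, adjusted p = 0.0038).

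Nqo1 (chromosome 8, 107388225 to 107403205), the quinone reductase often used as a readout of Nrf2 in other tissues, was barely detected. Its counts were 1 to 18 per labelled-KO library and 0 to 18 per WT library. The mean was 0.393, 0.199 and 0.806 CPM at 0, 4 and 18 h in labelled-KO cells and 0.520, 0.391 and 0.617 CPM in WT cells. The WT library with no count, number 3 at 4 h, allows up to 0.274 CPM (3 counts, counting error only). A rise from 4 to 18 h was called in labelled-KO cells (log2 2.15, SE 0.77, adjusted p = 0.018) with overlapping libraries, and it ended when number 3 or 4 at 4 h or number 4 at 18 h was left out (1.59 to 1.95). No other comparison of Nqo1 was called with TMM factors and all libraries, and smaller differences of this gene were not detectable at this depth.

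**Figure D2:**
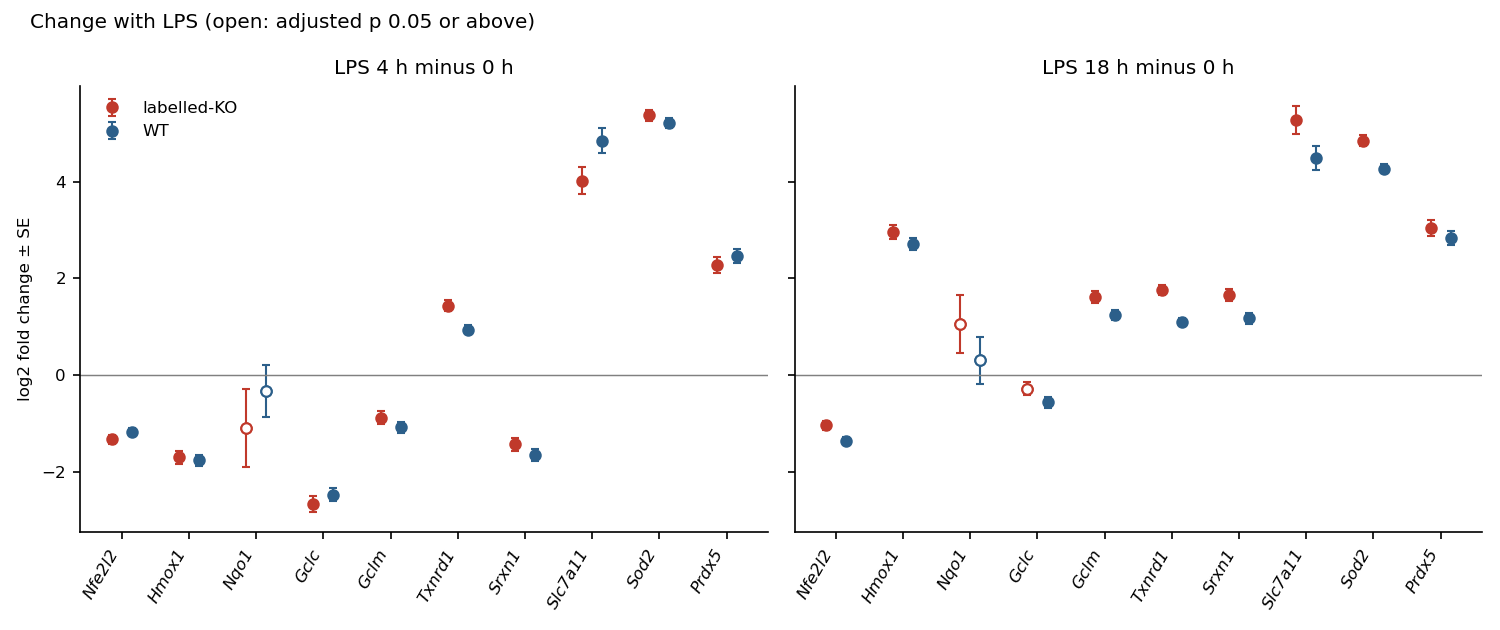
log2 fold change ± SE of each gene at 4 h (left panel) and 18 h (right panel) against 0 h of LPS, labelled-KO left of WT. Open points were not called. Slc7a11 and Sod2 show the largest rises, Gclc the largest fall at 4 h, and Hmox1, Gclm and Srxn1 lie below 0 at 4 h and above 0 at 18 h.

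The genotypes were compared at each time. Before LPS 1 of the 10 genes was called: Gclm was lower in labelled-KO cells, at 20.3 ± 3.17 CPM (SD, n = 3) against 28.5 ± 2.70 CPM in WT cells (SD, n = 4), a log2 change of -0.49 (SE 0.12, adjusted p = 0.017). Of all genes 3.98% were called at 0 h, 1.11% higher and 2.87% lower. At an unadjusted p under 0.05 the count was 5 of 10, beside 1989 of all 12529 genes. The call of Gclm ended with the stromal level as a covariate (-0.41, adjusted p = 0.12) and without labelled-KO number 2 (-0.45, adjusted p = 0.096) or 3 (-0.41, adjusted p = 0.13) or WT number 3 (-0.44, adjusted p = 0.052). Txnrd1 was just outside (-0.35, SE 0.10, adjusted p = 0.051) and was called by DESeq2 (-0.34, adjusted p = 0.013) and limma-voom (-0.35, adjusted p = 0.031). Neutrophil markers moved at the same time: 7 of 8 tested were higher in labelled-KO cells, with a summed level of 78.7 to 134 CPM against 28.3 to 48.9 CPM in WT. The summed stromal level was 164 to 293 CPM in labelled-KO against 6.33 to 175 CPM in WT. The part of neutrophils in these values was not tested.

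At 4 h none of the 10 genes was called by edgeR, DESeq2 or limma-voom, and 3 were at an unadjusted p under 0.05 in edgeR. Of all genes 5.56% were called, 2.87% higher and 2.7% lower, and 2572 of 12529 were at an unadjusted p under 0.05. Nfe2l2 (-0.22, SE 0.09, adjusted p = 0.16), Gclc (-0.49, SE 0.18, adjusted p = 0.11) and Gclm (-0.29, SE 0.14, adjusted p = 0.23) were lower in every labelled-KO library than in every WT library without passing the test. How many of all genes separated in this way is not given here. The differences in the response from 0 to 4 h were not called for any of the 10 genes by edgeR. Of all genes 0.798% were called there (0.599% higher and 0.2% lower). An unadjusted p under 0.05 was found for 2 of the 10, beside 1272 of all 12529 genes. DESeq2 called the difference for 1 of the 10, Txnrd1 (0.52, adjusted p = 0.018, against 0.50 and 0.11 in edgeR), and limma-voom for 0. In edgeR Txnrd1 was also called without labelled-KO number 4 (0.61) or WT number 1 (0.56) at 0 h.

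The time and genotype comparisons share libraries. At 18 h 6 of the 10 genes were higher in labelled-KO cells and none was called lower, when 32.2% of all genes were called, 16.6% higher and 15.6% lower. Slc7a11 stood apart, 2.77-fold higher at 107 ± 34.1 CPM (SD, n = 3) against 38.7 ± 7.61 CPM in WT cells (SD, n = 4; log2 1.47, SE 0.21, adjusted p = 2.2e-05). The other 5 differed by 1.2 to 1.3-fold: Hmox1 (log2 0.38, SE 0.12, adjusted p = 0.022), Srxn1 (0.36, SE 0.12, adjusted p = 0.025), Sod2 (0.32, SE 0.09, adjusted p = 0.0095), Txnrd1 (0.31, SE 0.10, adjusted p = 0.017) and Nfe2l2 (0.27, SE 0.09, adjusted p = 0.024). In CPM with TMM factors, each of the 6 was higher in all 3 labelled-KO libraries than in all 4 WT libraries. Prdx5 did not overlap either but was not called (0.28, SE 0.15, adjusted p = 0.15). The share of all genes that separated in this way is not given here. Gclm (-0.12) and Gclc (-0.02) were near 0.

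**Figure D3:**
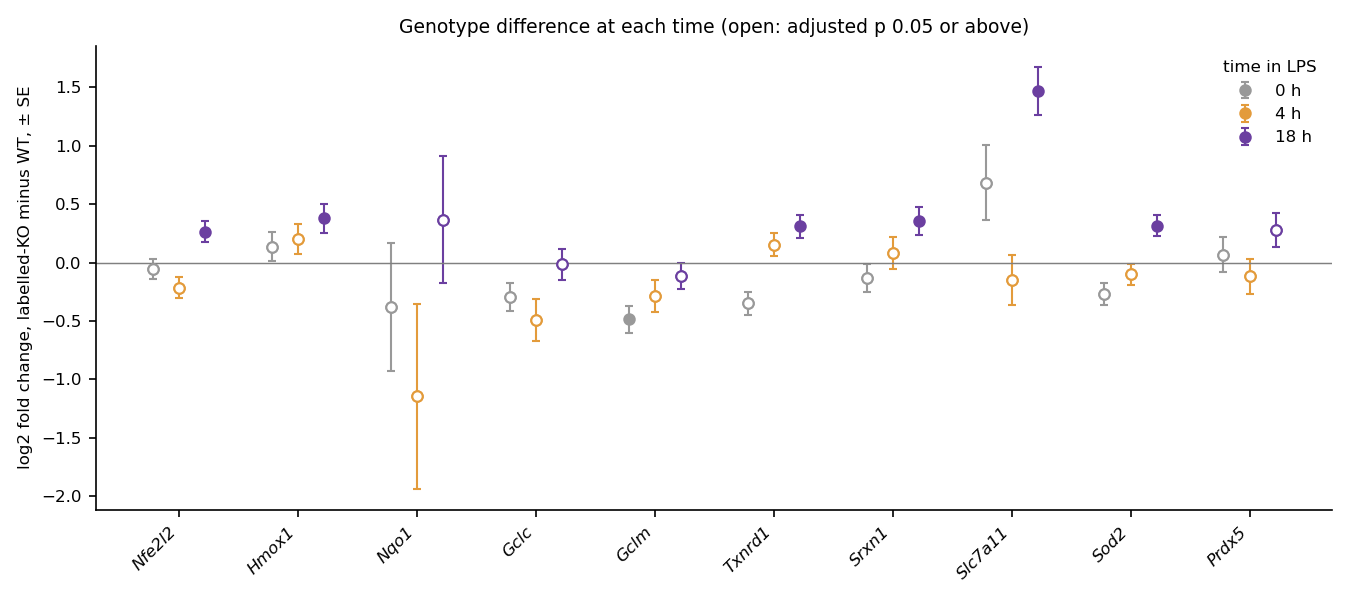
log2 fold change of labelled-KO minus WT (± SE) for each gene at 0, 4 and 18 h of LPS. Open points were not called. At 18 h Slc7a11 stands at 1.47, and Hmox1, Srxn1, Sod2, Txnrd1 and Nfe2l2 stand between 0.27 and 0.38.

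The calls of the 5 smaller rises ended with library totals, and that of Slc7a11 did not. With library totals the median difference of all genes at 18 h was -0.23, against -0.01 with TMM factors, and 20.5% of the called genes were higher against 51.4%. Under that setting Hmox1 stood at 0.16, Srxn1 at 0.14, Sod2 at 0.10, Txnrd1 at 0.10 and Nfe2l2 at 0.05, none of them called (adjusted p = 0.27 to 0.69). Slc7a11 stood at 1.25 (adjusted p = 3.9e-05), and Gclm was called lower (-0.33, adjusted p = 0.018). In CPM of the plain library total, Slc7a11 had 69.7, 123 and 85.4 in labelled-KO libraries, against 29.7, 37.9, 42.4 and 45.9 in WT libraries, still without overlap. Hmox1 on that scale had 3062, 3132 and 3376 in labelled-KO libraries, against 2343, 2749.8, 2921 and 3371 in WT libraries, which overlap. Nfe2l2, Srxn1 and Sod2 overlapped on that scale too. Their lowest labelled-KO libraries had 114, 131 and 1003, and their highest WT libraries 127, 141 and 1046. Txnrd1 was only just apart, at 246.7 in its lowest labelled-KO library and 246.6 in its highest WT library. The 6 calls held with median-of-ratios and upper-quartile factors. Sod2 and Txnrd1 kept their calls with each single library left out. Hmox1 lost its call without labelled-KO number 4 or WT number 1 or 2 (0.28 to 0.35), Srxn1 without labelled-KO number 2 or 4 or WT number 1 or 2 (0.32 to 0.33), and Nfe2l2 without labelled-KO number 3 (0.15) or WT number 1 or 4 (0.24). Nfe2l2 also lost its call with no filter on low counts (0.25, adjusted p = 0.054). Without WT number 1 only 3 of the 10 genes were called, and without labelled-KO number 4, the library of highest stromal level, 4 were. Slc7a11 ranged from 1.19 to 1.65 over the libraries left out in turn and was called each time.

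**Figure D4:**
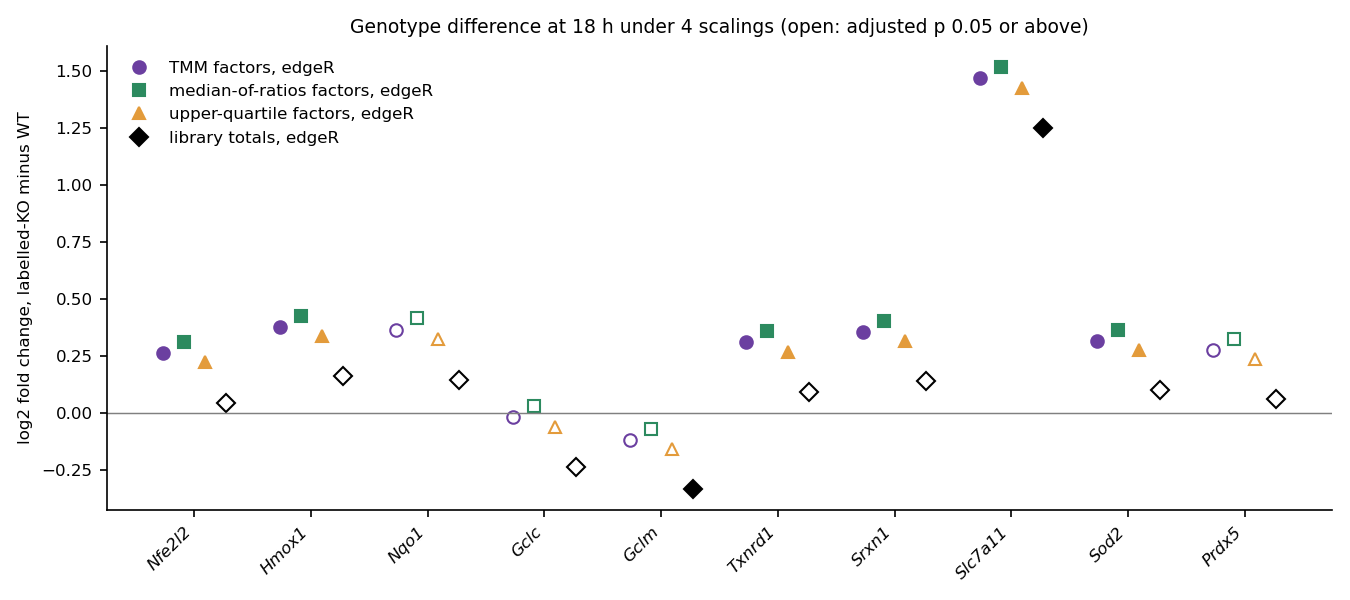
log2 fold change of labelled-KO minus WT at 18 h under 4 ways of scaling the libraries in edgeR. Open symbols were not called. Library totals (black diamonds) lie lowest for every gene, and Slc7a11 and Gclm are the filled ones among them.

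Other markers differed at 18 h as well. Of 11 tested stromal markers 10 were higher in labelled-KO cells, with a summed level of 59.0, 239 and 1003 CPM in the 3 labelled-KO libraries against 19.9 to 78.5 CPM in WT. Of 8 tested neutrophil markers 5 were higher, with a summed level of 327 to 462 CPM against 190.0 to 277 CPM in WT. Of 3 tested dendritic cell markers 1 was higher, and the summed level of the list of 6 was 15.4 to 19.0 CPM against 7.72 to 9.09 CPM in WT. With the stromal level as a covariate 4 of the 6 genes stayed called, and Slc7a11 stood at 1.41 (adjusted p = 0.00048). Nfe2l2 (0.22, adjusted p = 0.14) and Srxn1 (0.39, adjusted p = 0.051) did not. Labelled-KO numbers 2, 3 and 4, in rising order of stromal level, stood at 78.4, 145 and 98.6 CPM for Slc7a11. The part of neutrophils and dendritic cells in these values was not tested.

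The change from 0 to 18 h differed between the genotypes for 2 of the 10 genes, Txnrd1 and Sod2, both with the larger rise in labelled-KO cells, when 17.6% of all genes were called, 8.57% higher and 9.0% lower. From 4 to 18 h the change differed for 3, Slc7a11, Nfe2l2 and Sod2, when 10.8% of all genes were called, 6.26% higher and 4.58% lower. All were positive. Srxn1 lay just outside from 0 to 18 h (0.49, SE 0.17, adjusted p = 0.051) and was called by DESeq2 (0.53, adjusted p = 0.017) and limma-voom (0.47, adjusted p = 0.044). With library totals Txnrd1 and Sod2 kept their calls from 0 to 18 h, and of the 3 from 4 to 18 h only Slc7a11 did. The call of Sod2 from 4 to 18 h also ended with upper-quartile factors (0.37, adjusted p = 0.054) and when any labelled-KO library of 4 or 18 h was left out, or WT number 1 or 3 at 4 h, or WT number 2 or 3 at 18 h (adjusted p = 0.054 to 0.079). The call of Nfe2l2 ended without labelled-KO number 2 at 4 h (0.44, adjusted p = 0.057).

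Other genes of the pathway were taken from 7 lists of 99 genes, all in the table, of which 93 were tested. In labelled-KO cells 34 were higher and 45 lower at 18 h than at 0 h, when 34.5% of all genes were called higher and 38.5% lower. In WT cells 33 were higher and 43 lower, when 34.8% of all genes were called higher and 36.3% lower. The list medians were -0.18 and -0.34 on the log2 scale, beside -0.08 and -0.05 for all genes. With library totals 20 were higher in labelled-KO and 21 in WT cells, beside 2179 and 2354 of all 12529 genes. The lists thus moved in both directions, as did all genes.

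Among 12 tested regulators of Nrf2, 8 rose and 1 fell in labelled-KO cells at 18 h, and 9 rose and 2 fell in WT cells. Of all genes 34.5% were called higher and 38.5% lower in labelled-KO cells, and 34.8% higher and 36.3% lower in WT cells. Keap1, the adaptor that holds Nrf2 down, rose by 1.68 in labelled-KO cells (SE 0.08, adjusted p = 3.8e-14) and by 1.54 in WT cells (SE 0.07, adjusted p = 1.2e-14). Of the small Maf partners on this list, Maff and Mafk rose early, and Mafg is not described here. At 4 h Maff was at 26.3 ± 1.82 CPM in labelled-KO (SD, n = 3) and 15.5 ± 1.70 CPM in WT cells (SD, n = 4), against 1.13 CPM in labelled-KO and 0.999 CPM in WT cells at 0 h. Mafk rose by 2.77 at 4 h in labelled-KO cells (SE 0.11, adjusted p = 1.5e-15) and by 2.78 in WT cells (SE 0.09, adjusted p = 7e-17).

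Of 23 tested glutathione genes 7 rose and 12 fell in labelled-KO cells at 18 h, and 6 rose and 12 fell in WT cells. The shares of all genes at 18 h were 34.5% higher and 38.5% lower in labelled-KO cells, and 34.8% and 36.3% in WT cells. Gsr, glutathione reductase, rose by 1.90 in labelled-KO cells and by 1.58 in WT cells (adjusted p = 2.2e-11 and 3.1e-11), while Gpx3, a secreted glutathione peroxidase, fell by 2.69 in labelled-KO and fell by 3.29 in WT cells (adjusted p = 1.1e-09 and 4.3e-12). In the thioredoxin list of 22, 8 rose and 11 fell in labelled-KO cells and 6 rose and 10 fell in WT cells. Glrx, glutaredoxin, reached 1396 ± 164 CPM in labelled-KO (SD, n = 3) and 1058 ± 93.5 CPM in WT cells (SD, n = 4) at 18 h, against 26.7 CPM in labelled-KO and 38.3 CPM in WT cells at 0 h. Txn1, thioredoxin, rose by 2.01 in labelled-KO and by 1.89 in WT cells (adjusted p = 1.1e-11 and 2.3e-12). Sesn1, a sestrin, fell by 7.02 at 4 h in labelled-KO and fell by 5.82 in WT cells (adjusted p = 1.3e-15 and 3.1e-16).

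In the superoxide and peroxide list of 6, which holds neither Sod2 nor Prdx5, 5 fell at 18 h in both genotypes, when 38.5% of all genes in labelled-KO and 36.3% in WT cells were called lower. Catalase (Cat) fell by 1.37 in labelled-KO and fell by 1.33 in WT cells (adjusted p = 6.9e-09 and 1e-09). Sod3, named after its values were seen, was called higher in labelled-KO cells (3.25), at a low and uneven level of 0.435 to 7.04 CPM at 18 h. In the NADPH list of 9, Idh1, the cytosolic isocitrate dehydrogenase, fell by 3.00 in labelled-KO and fell by 2.47 in WT cells (adjusted p = 2e-16 and 2.3e-16). In the haem and iron list of 9, ferritin heavy chain (Fth1) rose by 2.52 in labelled-KO and by 2.33 in WT cells (adjusted p = 1.2e-14 and 3.3e-15), beside Hmox1. The iron exporter ferroportin (Slc40a1) fell by 5.19 at 4 h in labelled-KO and fell by 5.42 in WT cells (adjusted p = 2e-14 and 6.5e-16). Of 12 other Nrf2 targets 3 rose and 6 fell at 18 h in labelled-KO cells, and 4 rose and 7 fell in WT cells. Beside these counts, 34.5% of all genes were called higher and 38.5% lower in labelled-KO cells, and 34.8% and 36.3% in WT cells. Ephx1, microsomal epoxide hydrolase, fell by 4.30 in labelled-KO and fell by 4.88 in WT cells (adjusted p = 8.2e-15 and 2e-16).

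**Figure D5:**
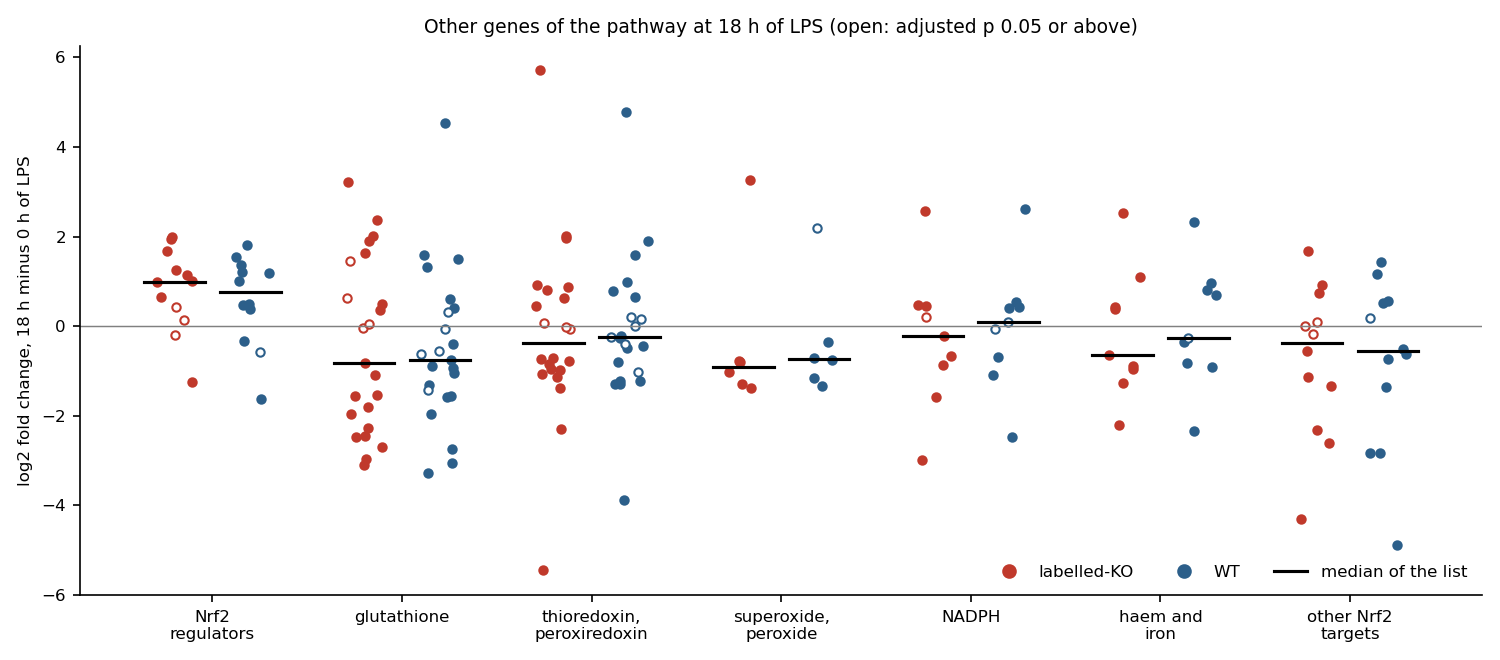
log2 fold change from 0 to 18 h of LPS for the tested genes of 7 pathway lists, labelled-KO left of WT. Each point is a gene, open where it was not called, and bars are list medians. The Nrf2 regulators have medians of 0.99 and 0.75, and the glutathione genes -0.82 and -0.75.

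Between the genotypes, 16 of the 93 genes were higher and 24 lower in labelled-KO cells at 18 h, when 16.6% of all genes were called higher and 15.6% lower. With library totals 6 were higher and 43 lower, and with the stromal level as a covariate 6 were higher and 15 lower. Slc3a2, the heavy chain that carries xCT to the membrane, was at 719 to 761 CPM in the 3 labelled-KO libraries and 564 to 641 CPM in the 4 WT libraries (log2 0.31, SE 0.07, adjusted p = 0.0017). It stood at 0.09 with library totals (adjusted p = 0.26). Mafk was higher in labelled-KO cells at 80.8 ± 1.10 CPM against 52.4 ± 1.20 CPM in WT (log2 0.62, SE 0.10, adjusted p = 5.9e-05) and kept its call with library totals (0.41, adjusted p = 0.00096). The sestrins went opposite ways: Sesn3 was higher (1.76, SE 0.17, adjusted p = 2.3e-07) and Sesn1 lower (-1.47, SE 0.22, adjusted p = 3.8e-05), both also with library totals. Prdx3, the mitochondrial peroxiredoxin, was lower (-0.72, SE 0.14, adjusted p = 0.00063). Gpx8, Sod3, Msrb3 and Gstm2, named after their values were seen, had the largest rises on these lists (1.88 to 5.07), at levels of at most 7.04 CPM in any labelled-KO library, and none stayed called with the stromal covariate.

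Earlier times showed fewer differences in these lists. At 0 h 1 of the 93 genes was called, Mgst2 (-2.49), named after its value was seen, when 3.98% of all genes were called. An unadjusted p under 0.05 was found for 19 of the 93, beside 1989 of all 12529 genes. At 4 h 4 were higher and 6 lower, when 2.87% of all genes were called higher and 2.7% lower. Maff was higher in labelled-KO cells (0.76, SE 0.16, adjusted p = 0.0072), and Txnip, an inhibitor of thioredoxin, was lower at 113 ± 18.5 CPM against 183 ± 33.1 CPM in WT (-0.70, SE 0.12, adjusted p = 0.0017). With the stromal covariate 0 were higher and 2 lower at 4 h.

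Levels of different genes were set side by side as CPM per kilobase of transcript. At 0 h Hmox1 was the highest of the 10, at 303 ± 18.3 CPM per kb in labelled-KO and 275 ± 33.2 in WT cells, followed by Nfe2l2, Prdx5, Txnrd1 and Srxn1 in both genotypes. At 4 h Prdx5 led, at 449 ± 10.8 CPM per kb in labelled-KO and 487 ± 132 in WT cells, with Sod2 behind it. At 18 h Hmox1 led again, at 2341 ± 143 CPM per kb in labelled-KO and 1799.7 ± 302 in WT cells, ahead of Prdx5, Sod2 and Txnrd1. Nqo1 was last except in WT cells at 0 h, where Slc7a11 was. Slc7a11 was ninth in labelled-KO cells at 0 h and seventh at 18 h, and in WT cells ninth at 18 h. Neighbours in this order whose ranges of mean ± SD overlapped were Sod2 and Gclc, and Slc7a11 and Nqo1, at 0 h in both genotypes. The same held for Srxn1 and Nfe2l2 at 18 h in both genotypes, for Slc7a11 and Gclm at 18 h in labelled-KO cells and for Gclc and Slc7a11 at 18 h in WT cells. In WT cells at 4 h it held for Txnrd1 and Nfe2l2 and for Srxn1 and Slc7a11.

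For 9 of the 10 genes the closest profiles over the 6 group means were sought among 11782 other genes, as the root mean square difference of centred log2 CPM. This is a description over groups that share libraries and scaling. A prior count of 2, added before the log was taken, flattens the profile of Nqo1, which had at most 18 counts in a library. Its distances below carry that limit. The closest match given here was that of Txnrd1 with Mbnl2 (0.0553), followed by Gclc with Gpr65 (0.0735), Nqo1 with Spef1l (0.0797) and Nfe2l2 with Antxr2 (0.0847). Gclm was nearest to Itpr3 (0.137), Hmox1 to Trib3 (0.140), Sod2 to Hmgn3 (0.150), Srxn1 to Mdk (0.163) and Slc7a11 to Ifit3 (0.271). Of these 9 genes Slc7a11 thus had the most distant nearest profile. Among the 10 genes themselves the most alike were Gclm and Srxn1 (0.342), whose promoters are shown above, then Nqo1 and Gclm (0.547), and Slc7a11 and Sod2 (0.645). Nfe2l2 and Hmox1 were 2.03 apart. The distances of Nfe2l2 to the other genes of the 10 ran from 0.697 (Nqo1) to 2.92 (Sod2), with 0.862 for Gclc.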

How the data were processed

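Poly(A) libraries (RNeasy RNA, KAPA mRNA HyperPrep) were made from 21 macrophage cultures. The submitters' processing notes name CASAVA 1.8.2, HISAT2 2.1.0 and mm10. Not given in the sources used here are the counting tool, its use of strand and its handling of shared reads. Estimated counts for each RefSeq transcript were deposited by the authors. They moved in steps of 0.5 and totalled 23478281.5 to 55852932 per library. Values were rounded, 0.5 upward. Whole-number counts had been assumed when the tests were set. Of 42361 transcript IDs, 42203 matched RefSeq symbols and 65 GENCODE only. The 93 unnamed ones (0.232 to 2.23% of counts) were left out. For each gene the transcript with the highest mean was kept, which avoids counting reads of shared exons again.

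edgeR 4.0.16 (R 4.3.3) with filterByExpr, TMM factors and 6 group means gave quasi-likelihood tests of 12 comparisons, adjusted by Benjamini-Hochberg over 12529 genes. The steps were tested on simulated data. Alternatives were DESeq2 1.42.0, limma-voom (limma 3.58.1), other scaling factors, no filter, summed transcripts, only the groups compared, a replicate block, a stromal covariate and each library left out. Library totals without factors were added after seeing the data. Named pathway genes are up to 2 per list, sign and comparison with the largest called change, at least 5 CPM and groups without overlap. Others are said to be named after their values were seen. The 10 genes and all lists were chosen with earlier results of these data known. No pair of libraries of a group had counts that agree within sampling noise (chi-square per degree of freedom at least 6.44). Same-numbered WT libraries at 0 and 4 h deviated together (r = 0.23 to 0.32), so the numbers were taken to pair those groups. Unless the replicate block is named, the values given come from the fit without it and do not use that pairing. Intervals and floors cover counting error only. The profile nearest to that of Prdx5 is not reported here.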

Additional observations from a re-analysis of the deposited data

Results flagged for a closer look

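Differences between the genotypes in the response to LPS were called by the edgeR test of the difference itself in 5 cases. From 0 to 18 h the rise of Txnrd1 was larger in labelled-KO than in WT cells by 0.66 on the log2 scale, and that of Sod2 by 0.58. From 4 to 18 h the change of Slc7a11 was larger in labelled-KO cells by 1.62, that of Nfe2l2 by 0.48 and that of Sod2 by 0.42. Among the 30 sets of 4 WT libraries, no gene of the 10 had a library far enough from the others to pass Dixon's test. The sets of 3 labelled-KO libraries were too small for it.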

How the results depend on the processing

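Of 2245 values of the 10 genes under alternatives, 2137 kept their direction and their side of the threshold, 54 lost a call, 36 gained one and 18 changed sign. Library totals changed the sign of Txnrd1 from 0 to 4 h (-0.04), Nqo1 from 0 to 18 h (-0.20), and Nfe2l2 (0.28) and Slc7a11 (0.11) from 4 to 18 h, all in WT cells. They also turned the genotype differences in the change from 4 to 18 h of Hmox1 (-0.04), Gclm (-0.05) and Txnrd1 (-0.07). Gclc in labelled-KO minus WT at 18 h was 0.03 with median-of-ratios factors and with DESeq2, and -0.14 to 0.06 with single libraries left out. In the same way Nqo1 at 18 h ranged from -0.16 to 0.71, Nfe2l2 at 0 h from -0.10 to 0.000699, and at 4 h Slc7a11 from -0.26 to 0.04 and Prdx5 from -0.23 to 0.08. The difference in the 4 h response of Prdx5 ranged from -0.30 to 0.01.

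The count of the 10 genes called between genotypes at 0 h (1) was 2 with the other scalings, no filter, the replicate block, limma-voom or DESeq2, 0 with the stromal covariate and 0 to 2 with single libraries left out. At 18 h (6) it was 2 with library totals, 4 with the stromal covariate, 5 with no filter and 3 to 6 with libraries left out. For the difference in response it was 1 by DESeq2 and 0 to 1 with libraries left out at 4 h (0), and 4 with median-of-ratios factors or DESeq2 at 18 h (2). From 4 to 18 h (3) it was 1 with library totals and 1 to 3 with libraries left out. The cause was not tested.

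Of the pathway genes called from 0 to 4 h, 14 in labelled-KO and 15 in WT cells were higher with upper-quartile factors. With library totals 8 in labelled-KO and 9 in WT cells were higher and 72 and 76 lower. From 0 to 18 h 20 and 21 were higher with library totals. Between genotypes at 0 h, 3 were higher by limma-voom, and 2 were lower by DESeq2, limma-voom or library totals. At 4 h 0 were higher and 2 lower with the stromal covariate. At 18 h 6 were higher with library totals or the stromal covariate, and 43 and 15 were lower.

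The replicate block changed no call of the WT comparison of 4 h with 0 h, where the numbers pair. Elsewhere the correlations of same-numbered libraries overlapped with those of unlike numbers. Between 4 and 18 h in labelled-KO cells they were 0.10 to 0.50, against -0.48 to 0.11. Whether the numbers pair those groups is not known. With the block 7 of the 10 genes were called between genotypes at 18 h, Prdx5 among them (0.36). Gclc then also fell from 0 to 18 h in labelled-KO cells (-0.28, adjusted p = 0.026). Groups of 3 and 4 libraries and the low counts of Nqo1 limit what could be detected.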
